A study of Homo sapiens with 8 samples.

Results

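The stretch of chromosome 17p from 14 to 22 Mb was examined in H3122 lung adenocarcinoma cells with evolved resistance to ALK inhibitors (erALK-TKI cells). Its members are the H3K27ac peaks that start between these positions on hg38 and the genes paired with them at a distance of at most 20 kb. They number 688 of 126470 peaks and 331 of 43869 genes. The stretch was chosen by its RNA and peak changes in the erAlec0 and erLor0 lines, which were raised over many neighbouring features, so these changes describe the choice and are given with no test.

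Treatment-naive H3122 cells, which carry the EML4-ALK fusion, were compared with 3 lines derived from them. The erAlec0 line was evolved and kept in 2 μM alectinib, the erLor0 line in 2 μM lorlatinib and the erCriz0 line in 0.5 μM crizotinib, each under a dose that was raised step by step. Each line gave 1 H3K27ac ChIP-seq library and 1 RNA-seq library, and RNA was taken after 48 h without inhibitor. The labels add that the ChIP-seq cells were kept in the solvent DMSO. Each line is 1 evolved population, so a difference between lines has no replicate check, and all differences share the same naive library.

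H3K27ac, acetylation of lysine on the tail of histone H3, marks active promoters and enhancers. The short arm of chromosome 17 near the centromere is rich in low-copy repeats, long near-identical blocks that hold copies of CCDC144, FAM106 and keratin pseudogenes. Recombination between such repeats causes deletions and duplications with known disorders, among them Smith-Magenis syndrome, in which RAI1 is lost, and Charcot-Marie-Tooth disease through extra PMP22. The same arm holds NCOR1, a corepressor that works with histone deacetylases, FLCN, a tumour suppressor of lysosomal nutrient signalling, and the kinase genes MAPK7 (ERK5) and MAP2K3.

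All values are rlog values, a log2 of the normalised read count that the authors' tool draws toward the feature's mean where reads are few. The difference between the rlog in evolved and in naive cells is called the change, so a change of 1 is a 2-fold level. Genes and peaks were called up or down at a change of 1 in size, and "rose" and "fell" are used for called features only. Genes with an rlog of at least 4.64, the log2 of 25 reads, in at least 1 library are called expressed. The study also measured DNA copy number on SNP arrays. It reported recurrent amplifications in resistant lines on several chromosomes, and the chromosome of the stretch is among them. Where on this chromosome they lie, and in which lines, is not given in the sources used here. Copy number was not analysed here, and extra copies and more activity per copy cannot be told apart in these rlog values.

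Sequences of 5 promoters and 1 intron peak of the stretch are shown, to set genes that rose beside genes that did not. The promoters are RefSeq sequences on GRCh38.p14 of 300 bases, written 5′ to 3′ on the gene's strand, and the peak centre is read from the plus strand of hg38. Capitals mark motifs, searched on both strands. These were TGANTCA, the motif of AP-1, and TGACGTCA, the CRE, beside GGGCGG, known as the GC box, then the letters CCAAT of the box of that name, and GGAATG as the motif of TEAD factors. NCOR1 rose in erAlec0 alone, FAM83G and MAPK7 rose in erAlec0 and erLor0, and SHMT1 and ALDH3A2 rose in neither. Their promoters lie at chr17:16215485-16215784, chr17:19004715-19005014, chr17:19377500-19377799, chr17:18363501-18363800 and chr17:19647886-19648185, on the minus strand for NCOR1, FAM83G and SHMT1. The peak centre at chr17:17944655-17944954 lies in an intron of TOM1L2, in the longest of the 5 peaks with the largest rise in erAlec0.
NCOR1: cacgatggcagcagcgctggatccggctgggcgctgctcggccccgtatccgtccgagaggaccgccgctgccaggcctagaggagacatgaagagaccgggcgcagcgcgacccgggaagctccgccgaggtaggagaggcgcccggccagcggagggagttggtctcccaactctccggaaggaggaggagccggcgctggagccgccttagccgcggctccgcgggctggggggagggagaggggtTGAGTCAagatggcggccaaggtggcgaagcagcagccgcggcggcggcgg
FAM83G: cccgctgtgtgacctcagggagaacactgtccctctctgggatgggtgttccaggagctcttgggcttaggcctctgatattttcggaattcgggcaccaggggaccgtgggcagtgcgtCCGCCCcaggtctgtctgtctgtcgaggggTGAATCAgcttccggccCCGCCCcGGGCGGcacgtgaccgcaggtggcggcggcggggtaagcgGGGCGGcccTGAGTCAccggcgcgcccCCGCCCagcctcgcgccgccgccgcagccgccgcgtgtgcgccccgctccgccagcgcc
MAPK7: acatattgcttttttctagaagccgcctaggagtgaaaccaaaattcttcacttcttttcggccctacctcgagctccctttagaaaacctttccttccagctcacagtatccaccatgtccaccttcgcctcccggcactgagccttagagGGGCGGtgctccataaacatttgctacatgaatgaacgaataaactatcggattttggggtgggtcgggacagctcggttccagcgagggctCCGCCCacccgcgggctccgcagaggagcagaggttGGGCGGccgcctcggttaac
SHMT1: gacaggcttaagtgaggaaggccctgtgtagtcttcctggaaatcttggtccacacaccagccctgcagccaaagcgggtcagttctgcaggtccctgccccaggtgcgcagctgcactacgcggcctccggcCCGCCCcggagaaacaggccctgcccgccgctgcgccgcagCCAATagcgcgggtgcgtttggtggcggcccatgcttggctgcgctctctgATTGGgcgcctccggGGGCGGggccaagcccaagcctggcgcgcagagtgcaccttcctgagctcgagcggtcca
ALDH3A2: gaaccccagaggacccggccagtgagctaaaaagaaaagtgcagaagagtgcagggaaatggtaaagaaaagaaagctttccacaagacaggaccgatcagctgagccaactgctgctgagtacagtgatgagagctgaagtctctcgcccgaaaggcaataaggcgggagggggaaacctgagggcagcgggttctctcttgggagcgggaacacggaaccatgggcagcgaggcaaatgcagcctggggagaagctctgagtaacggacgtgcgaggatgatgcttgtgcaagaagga
TOM1L2 peak centre: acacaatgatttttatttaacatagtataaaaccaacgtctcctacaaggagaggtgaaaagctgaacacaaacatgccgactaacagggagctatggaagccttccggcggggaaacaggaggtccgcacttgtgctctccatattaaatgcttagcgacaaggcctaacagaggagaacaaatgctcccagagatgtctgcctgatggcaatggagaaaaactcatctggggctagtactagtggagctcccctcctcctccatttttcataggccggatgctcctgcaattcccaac

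The printed promoters differ in these motifs. That of FAM83G holds 5 GC boxes and 2 AP-1 motifs, that of MAPK7 3 GC boxes, that of SHMT1 2 GC boxes and 2 CCAAT boxes, that of NCOR1 1 AP-1 motif, and those of ALDH3A2 and the TOM1L2 peak centre none of the 5. Of the 76 expressed genes of the stretch, 53 have a promoter in the RefSeq table. A GC box was in 71.7% of these 53, against 45% of all 35116 promoters, a table that includes genes silent in these cells. The AP-1 motif was in 7.55% of the 53, close to its share of 7.71% of all promoters. It was in 4 of the 25 promoters of genes that rose in erAlec0 and in 0 of the 28 others. These are matches of letters and were not tested.

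In erAlec0 values were raised over most of the stretch, in both of its parts, whereas in erLor0 its distal part, from 14 to 17 Mb, lay at the naive level and its centromeric part, from 17 to 22 Mb, was raised. Over the 76 expressed genes the median RNA change was 0.88 in erAlec0, a 1.85-fold level, 0.38 in erLor0 and −0.13 in erCriz0. Over all 12701 expressed genes it was 0.00, −0.00 and −0.02. In erAlec0 33 of the 76 genes rose and 0 fell, where 2.46% of all expressed genes rose and 2.07% fell. In erLor0 5 rose and 0 fell, against 1.1% and 0.74% of all expressed genes. In erCriz0 2 rose and 1 fell, against 2.65% and 1.65%. A change of at least 0.5 was reached by 60 genes in erAlec0, 35 in erLor0 and 5 in erCriz0, where the shares of all expressed genes were 10.4%, 5.98% and 9.87%. Since the stretch was chosen for these changes, nothing is read from the excess in erAlec0 and erLor0.

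**Figure D1:**
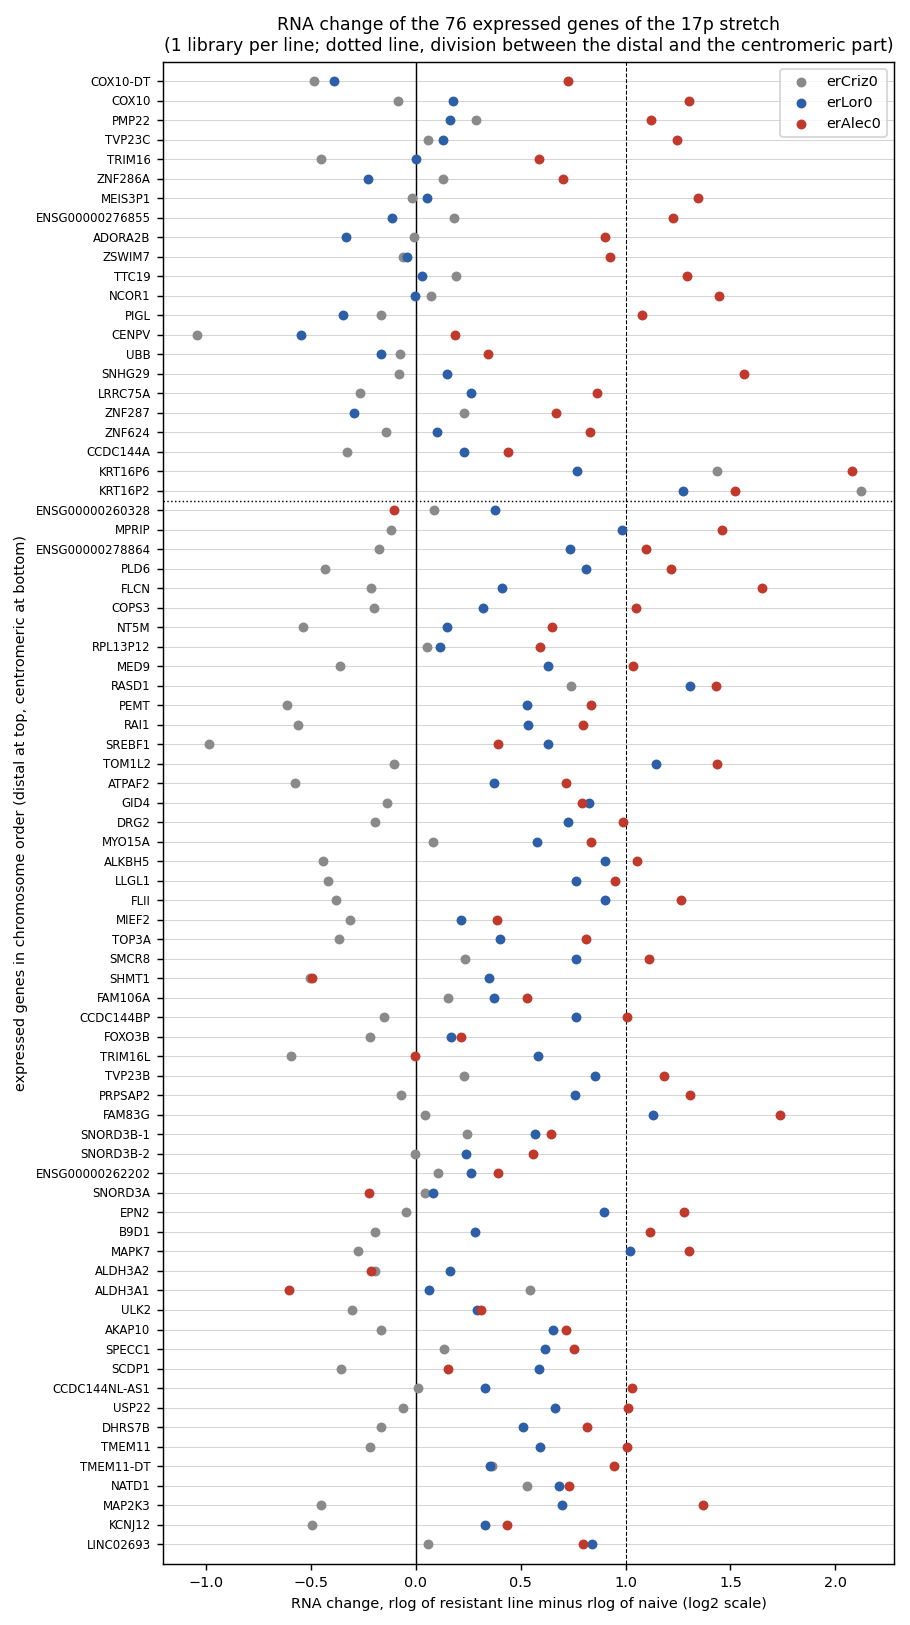
RNA change (rlog of a resistant line minus naive, log2 scale) of the 76 expressed genes in chromosome order, distal at the top, with 1 point per line and the call limit of 1 dashed. The erAlec0 points lie right of 0 at 70 genes, while the erLor0 points gather around 0 above the dotted line and lie right of 0 at all 54 genes below it. The erCriz0 and erAlec0 points of SHMT1 coincide.

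The H3K27ac peaks gave the same division in the medians of the parts, though not in every bin. Of the 688 peaks, 220 rose and 3 fell in erAlec0, where 14.1% of all peaks rose and 9.41% fell, and the median change was 0.73 against 0.00 over all peaks. In erLor0 79 rose and 7 fell, against 7.45% and 8.82% of all peaks, with a median of 0.28. In erCriz0 29 rose and 16 fell, against 7% and 5.94%, with a median of 0.01. A change of at least 0.5 was reached by 412, 233 and 128 peaks in erAlec0, erLor0 and erCriz0, or 59.9%, 33.9% and 18.6%, where the shares of all peaks were 28.9%, 23.4% and 21.9%. An rlog of at least 3.91, the log2 of 15 reads, was reached in at least 1 library by 546 of the 688 peaks, and 20 were listed at 0 in all 4. In the distal part the median of 219 peaks was 0.91 in erAlec0, −0.02 in erLor0 and 0.00 in erCriz0. In the centromeric part that of 469 peaks was 0.60, 0.38 and 0.02. In every 1 Mb bin the peaks of erAlec0 had a median above 0, from 0.42 between 20 and 21 Mb to 1.31 between 14 and 15 Mb. Bins of 0.5 Mb showed gaps, with a peak median of 0.11 from 20.5 to 21 Mb and an RNA median of 0.05 over the 4 expressed genes from 19.5 to 20 Mb, and the RNA median reached 0.5 in 13 of the 14 bins that hold expressed genes.

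**Figure D2:**
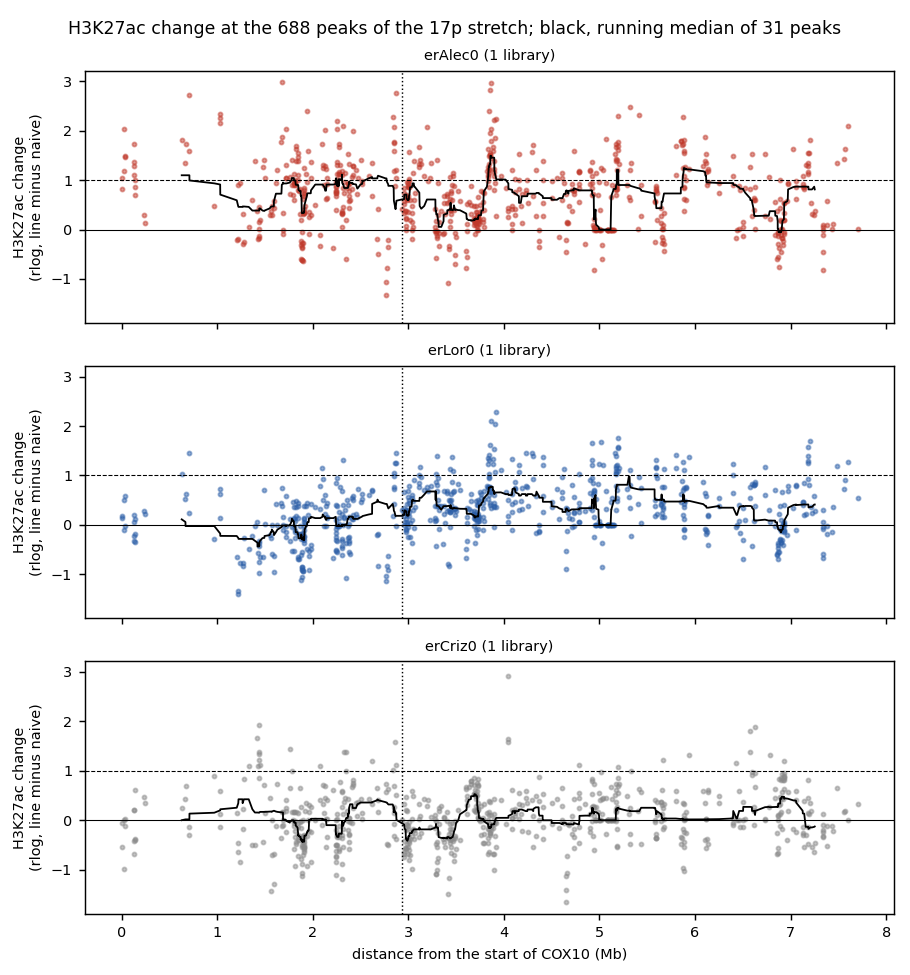
H3K27ac change (rlog, line minus naive) of the 688 peaks against distance from the start of COX10 in Mb, 1 panel per line, with the running median of 31 peaks in black and the division between the parts dotted. In erAlec0 the running median lies above 0 over most of the stretch, with short dips to 0, in erLor0 it lies mostly near or below 0 left of the dotted line, turning up shortly before it, and mostly above 0 to the right, and in erCriz0 it stays near 0.

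The division at 17 Mb was made after the values had been seen. With cuts at 16, 16.5, 17.5 and 18 Mb the median RNA change of erLor0 on the distal side was 0.00, −0.00, 0.14 and 0.17, and on the centromeric side 0.54, 0.58, 0.58 and 0.59. The median peak change of erLor0 at these cuts was −0.11, −0.02, 0.11 and 0.18 on the distal side and 0.35, 0.39, 0.40 and 0.40 on the centromeric side. In bins of 0.5 Mb it was 0.47 from 16.5 to 17 Mb and 0.31 from 17 to 17.5 Mb. In the gene order the step lies near the keratin pseudogenes KRT16P6 and KRT16P2, which end at 16832830. CCDC144A, the last gene before them, changed by 0.23 in erLor0, and MPRIP, which starts at 17042545, by 0.98. A noncoding RNA gene between them, ENSG00000260328, changed by 0.38.

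At the limits of the stretch the raised values of erAlec0 did not end sharply. COX10-DT, a noncoding gene that starts at 13755574 and is a member through its peaks, changed by 0.73 in erAlec0. ELAC2, the nearest expressed gene outside, at 12991612 to 13018065, changed by 0.90, whereas ARHGAP44 next to it changed by 0.08 and MAP2K4 by −0.11. In erLor0 these 4 genes changed by −0.39, −0.10, 0.17 and −0.10. On the centromeric side the last expressed member, LINC02693, changed by 0.80 in erAlec0 and 0.84 in erLor0. The first 4 peaks past 22 Mb had a median change of 2.46 in erAlec0 and 0.68 in erLor0.

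Genes of the distal part that were raised in erAlec0 alone begin with COX10 (ENSG00000006695.12, chromosome 17 from 14069490 to 14231736), which makes heme A for cytochrome c oxidase. Its rlog was 8.23 in naive and 8.15 in erCriz0 cells, against 9.53 in erAlec0 and 8.41 in erLor0 cells. The erAlec0 library thus stood 1.30 above naive, a 2.46-fold level, and the other 3 lay within 0.26 of each other. Of its 13 peaks, 9 rose in erAlec0 and 0 in erLor0. TTC19, an assembly factor of respiratory complex III, had 9.38 in naive and 9.58 in erCriz0 cells, against 10.68 in erAlec0 and 9.42 in erLor0 cells, and rose by 1.30 in erAlec0.

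NCOR1 (ENSG00000141027.21, chromosome 17 from 16029157 to 16218185) is the most prominent regulator of the distal part. Its rlog was 12.20 in naive and 12.27 in erCriz0 cells, against 13.64 in erAlec0 and 12.19 in erLor0 cells, so that erAlec0 alone stood apart, at a 2.72-fold level. Of its 22 peaks 11 rose in erAlec0 and 1 in erLor0. The peak over its promoter, at 16214037 to 16218420, had an rlog of 9.91 in naive and 10.32 in erCriz0 cells, against 10.95 in erAlec0 and 10.35 in erLor0 cells. NCOR1 overlaps TTC19 by 15859 bp on the opposite strand. The study checked strandedness, but the setting of the counting is not given in the sources used here. Reads of the 2 genes thus cannot be told apart with certainty. The same limit holds for 27 of the 76 expressed genes. They form 16 overlapping pairs, 14 on opposite strands and 2 on the same strand. Among them are SNHG29 with LRRC75A (37102 bp) and PIGL with CENPV (9264 bp).

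SNHG29, a host gene of small nucleolar RNAs, had 11.02 in naive and 10.94 in erCriz0 cells, against 12.58 in erAlec0 and 11.16 in erLor0 cells, the largest rise of the distal part outside the keratin pseudogenes at 1.56. PMP22, a myelin protein also made by other cells, rose by 1.12 from a low rlog of 5.63, though the only peak paired with it changed by −0.21. PIGL, an enzyme of membrane anchor synthesis, rose by 1.08, and TVP23C, a Golgi vesicle protein, by 1.25. The same genes changed by 0.15, 0.17, −0.35 and 0.13 in erLor0, in the order SNHG29, PMP22, PIGL and TVP23C. ADORA2B, an adenosine receptor, and ZSWIM7, a factor of homologous recombination, were higher in erAlec0 by 0.90 and 0.93 without reaching the limit.

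Of the 22 expressed genes of the distal part, 11 rose in erAlec0 and 19 reached 0.5. CENPV, a centromere protein, was the least raised, by 0.19, although 11 of its 13 peaks rose in erAlec0, with a median of 1.17. Its rlog was 7.86 in naive and 6.81 in erCriz0 cells, against 8.05 in erAlec0 and 7.31 in erLor0 cells, and it fell by 1.04 in erCriz0, a call that ended when the libraries were centred (−0.99) or quantile normalized (−0.98). UBB, a polyubiquitin gene, changed by 0.35 and CCDC144A by 0.44. In erLor0, leaving out the 2 keratin pseudogenes, the other 20 distal genes had a median change of −0.00 and ranged from −0.55 at CENPV to 0.26 at LRRC75A.

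KRT16P2 and KRT16P6 went against their surroundings. KRT16P2 had an rlog of 8.25 in naive and 10.38 in erCriz0 cells, against 9.78 in erAlec0 and 9.53 in erLor0 cells and rose in all 3 resistant lines. KRT16P6 rose by 2.08 in erAlec0 and 1.44 in erCriz0 and changed by 0.77 in erLor0. Their shared peaks were below the naive level both in erAlec0 and in erLor0, with the 9384 bp peak at 16830828 to 16840211 changing by −1.32 and −1.03, against 0.72 in erCriz0. Both are copies of KRT16 on the long arm, whose RNA changes were 1.72 for erAlec0, 1.40 for erLor0 and 0.46 for erCriz0, so their read assignment is uncertain. Its part in the result was not tested.

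Within the centromeric part 22 of the 54 expressed genes rose in erAlec0 and 4 in erLor0, and 41 and 33 reached 0.5. All 54 were higher than in naive cells in erLor0, by 0.06 to 1.31, with a median of 0.58 that corresponds to a 1.5-fold level. The erLor0 level was below that of erAlec0 at 44 genes and above it at 10, with a median difference of −0.27. In the distal part that difference was −1.04. At most centromeric genes the erLor0 level thus lay between the naive and the erAlec0 level.

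FAM83G (ENSG00000188522.15, chromosome 17 from 18968789 to 19004764), a scaffold protein that binds casein kinase, showed the largest rise of any protein-coding gene of the stretch in erAlec0. Its rlog was 9.07 in naive and 9.11 in erCriz0 cells, against 10.80 in erAlec0 and 10.20 in erLor0 cells, giving a rise of 1.74 in erAlec0 and 1.13 in erLor0. Both lines stood clear of naive and erCriz0 cells, which were 0.04 apart. The peak over its promoter changed by 0.72 in erAlec0 and 0.84 in erLor0.

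Kinase and signalling genes of the stretch followed the same order. MAPK7 (ENSG00000166484.20, chromosome 17 from 19377721 to 19383544), which encodes ERK5, had an rlog of 7.68 in naive and 7.41 in erCriz0 cells, against 8.98 in erAlec0 and 8.70 in erLor0 cells and rose by 1.30 and 1.02. MAP2K3, which encodes a kinase that activates p38, had 9.46, 9.01, 10.83 and 10.16 in the same order, a rise of 1.37 in erAlec0 and a change of 0.70 in erLor0. RASD1, a small GTPase, was raised in all 3 lines, with 9.95 in naive and 10.69 in erCriz0 cells, against 11.38 in erAlec0 and 11.25 in erLor0 cells. It was the largest change of erLor0 in the stretch, at 1.31. ULK2, a kinase that starts autophagy, changed only by 0.31 in erAlec0 and 0.29 in erLor0 while its 3 peaks had medians of 1.11 and 1.15. In the list of kinases, adaptors and small GTPases, 4 of 7 expressed genes rose in erAlec0 and 2 in erLor0. Over all 76 expressed genes of the stretch the shares were 43.4% and 6.58%. Counts of this and the other lists by function are not read as traits of a function.

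**Figure D3:**
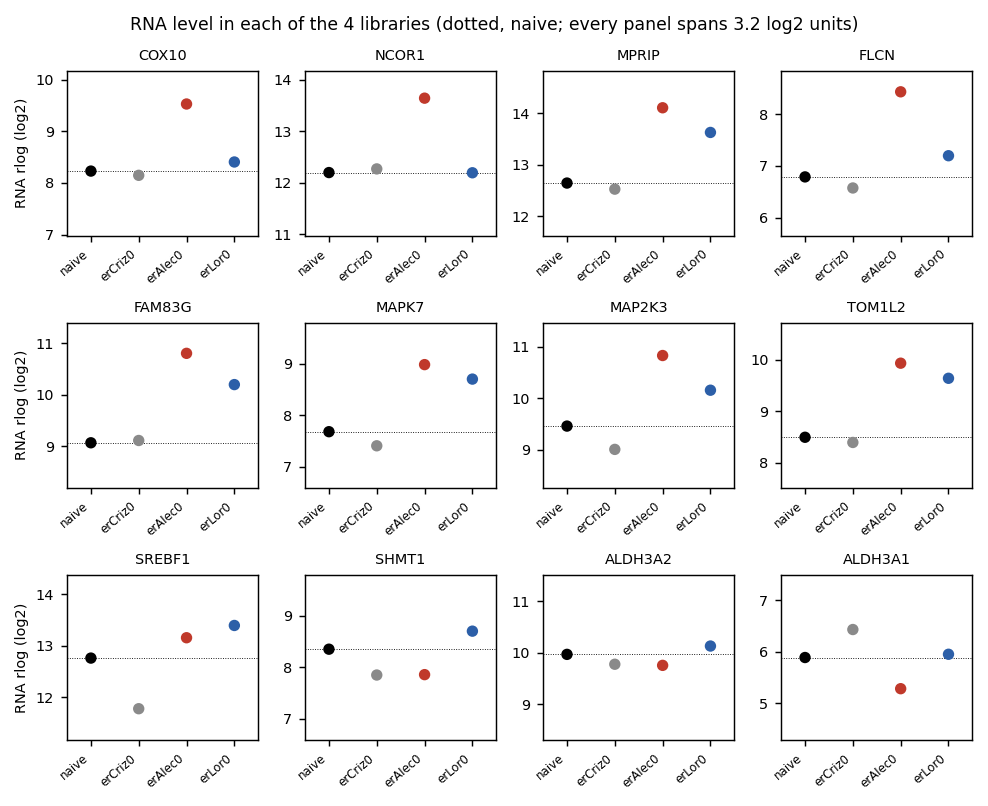
RNA rlog of 12 genes in the naive, erCriz0, erAlec0 and erLor0 libraries, 1 point per library, with the naive level dotted and every panel spanning 3.2 log2 units. COX10 and NCOR1 are raised in erAlec0 alone, MPRIP, FAM83G, MAPK7, MAP2K3 and TOM1L2 in erAlec0 and to a lesser degree in erLor0, and SHMT1, ALDH3A2 and ALDH3A1 lie below naive in erAlec0.

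MPRIP (ENSG00000133030.21, chromosome 17 from 17042545 to 17217679), which targets myosin phosphatase to the cytoskeleton, opens the centromeric part. Its rlog of 12.64 in naive and 12.52 in erCriz0 cells, against 14.10 in erAlec0 and 13.62 in erLor0 cells gave changes of 1.46 and 0.98. FLCN had 6.79, 6.57, 8.44 and 7.20 in the same order, so that it rose by 1.65 in erAlec0 and changed by 0.41 in erLor0. Both of its peaks rose in erAlec0 and 0 rose in erLor0. FLCN and MPRIP overlap by 5468 bp on opposite strands. COPS3, a subunit of the COP9 signalosome, and B9D1, of the ciliary transition zone, also rose in erAlec0, by 1.05 and 1.12, and changed by 0.32 and 0.28 in erLor0.

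TOM1L2 (ENSG00000175662.17, chromosome 17 from 17843511 to 17972422), an adaptor of endosomal sorting, had the most peaks that rose. Its rlog was 8.50 in naive and 8.40 in erCriz0 cells, against 9.94 in erAlec0 and 9.64 in erLor0 cells, a rise of 1.44 and 1.14. Of its 45 peaks 29 rose in erAlec0 and 13 in erLor0, with medians of 1.20 and 0.68. The 14993 bp intron peak at 17937309 to 17952301, whose centre is printed above, had 8.99 in naive and 8.79 in erCriz0 cells, against 11.96 in erAlec0 and 11.10 in erLor0 cells. This peak rose by 2.97 and 2.11, well past the medians of its part. ATPAF2 and EPN2 also had many raised peaks, with 9 of 12 and 12 of 22 that rose in erAlec0.

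Of the 11 expressed members of the list of transcription and chromatin regulators, 5 rose in erAlec0 and 10 reached 0.5, with a median of 0.83. The 5 include a pseudogene, MEIS3P1, given below. Over the 76 expressed genes of the stretch 43.4% rose in erAlec0 and 78.9% reached 0.5. In erLor0 0 rose and 5 reached 0.5, with a median of 0.40. USP22, the deubiquitinase of the SAGA complex, had 11.74 in naive and 11.68 in erCriz0 cells, against 12.75 in erAlec0 and 12.40 in erLor0 cells and rose by 1.01 in erAlec0, which became 0.87 under quantile normalization and so lost the call. Its 14 peaks had a median change of 0.19 in erAlec0, so RNA and acetylation moved by different amounts there. RAI1, the dosage-sensitive regulator of Smith-Magenis syndrome, was 0.80 above naive in erAlec0 and 0.54 above in erLor0, with −0.56 in erCriz0, and 0 of its 40 peaks rose in either of the first lines. SREBF1, which drives lipid synthesis genes and overlaps RAI1 by 1055 bp, had 12.76 in naive and 11.78 in erCriz0 cells, against 13.16 in erAlec0 and 13.40 in erLor0 cells. It was 1 of 3 genes that reached 0.5 in erLor0 and not in erAlec0, with TRIM16L and the pseudogene SCDP1.

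A list made for mitochondrial proteins had 9 expressed members, though SHMT1 among them is cytosolic and DHRS7B is not chiefly mitochondrial. In erAlec0 4 of the 9 rose, COX10, TTC19, PLD6 and TMEM11, against 43.4% of the 76 expressed genes of the stretch. A change of 0.5 was reached by 7, and the median of 0.82 is the value of DHRS7B. In erLor0 0 rose and the median was 0.35, the value of SHMT1. PLD6, a phospholipase of the outer mitochondrial membrane, rose by 1.21 in erAlec0 and changed by 0.81 in erLor0. The gene lies wholly within MPRIP on the opposite strand, so its reads cannot be told apart from those of MPRIP with certainty. In naive cells PLD6 had an rlog of 5.18 and MPRIP of 12.64. MIEF2, a factor of mitochondrial fission, changed by 0.39 in erAlec0 and 0.21 in erLor0. Of 9 genes listed under vesicle traffic and autophagy, 6 rose in erAlec0 and 1 in erLor0. EPN2, SMCR8 and TVP23B rose by 1.28, 1.11 and 1.18 in erAlec0. The list also counts MYO15A, an inner ear myosin. ALKBH5, an RNA demethylase, and FLII, an actin-binding coactivator, rose by 1.05 and 1.26 and changed by 0.90 each in erLor0.

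The list of ubiquitin and protein turnover gave 2 rises among 7 expressed genes in erAlec0, those of COPS3 and USP22, and 0 in erLor0. It also counts ZSWIM7, the factor of homologous recombination. The shares over the 76 expressed genes of the stretch were 43.4% in erAlec0 and 6.58% in erLor0. In lipid and aldehyde metabolism 2 of 6 rose in erAlec0, PIGL and SMCR8, the latter known for its part in autophagy. In the list of myelin, cilia and cell shape genes 3 of 5 rose in erAlec0, PMP22, B9D1 and FLII. In the list of solute carriers and channels, only KCNJ12 and ADORA2B, which is a receptor, were expressed, and neither rose. Of the 16 expressed genes of a list of genes with near copies 5 rose in erAlec0, with a median of 0.56. That list left out KRT16P6, CCDC144BP, SNORD3A, SNORD3B-1 and SNORD3B-2, and with these 5 added, after their values were seen, 7 of 21 rose and the median was 0.59.

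The other expressed genes that rose in erAlec0 were mostly noncoding. In the distal part they were MEIS3P1, a pseudogene, with a change of 1.34, and ENSG00000276855 with 1.22. In the centromeric part they were PRPSAP2, a regulator of nucleotide precursor synthesis, with 1.31, ENSG00000278864 with 1.10, MED9, a Mediator subunit, with 1.04, CCDC144NL-AS1 with 1.03 and the pseudogene CCDC144BP with 1.01. Under quantile normalization CCDC144NL-AS1 had 0.93 and was no longer called. In erLor0 the distal pair changed by 0.05 and −0.11. The centromeric genes changed there by 0.76, 0.73, 0.63, 0.33 and 0.77 in the order given. ENSG00000278864 lies wholly within MPRIP, on the same strand. CCDC144BP overlaps FAM106A by 13906 bp on the same strand, and CCDC144NL-AS1 overlaps USP22 by 2681 bp on the opposite strand. Reads of these genes cannot be told apart with certainty from those of the genes they overlap.

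Several genes came close to the limit in erAlec0. DRG2, a GTP-binding protein, changed by 0.99, LLGL1, a polarity protein, by 0.95 and TMEM11-DT by 0.94. Their changes in erLor0 were 0.73, 0.76 and 0.35. PEMT, DHRS7B, TOP3A, GID4, SPECC1, NATD1, AKAP10, NT5M, SNORD3B-1, RPL13P12, SNORD3B-2 and FAM106A lay between 0.53 and 0.84 in erAlec0. In erLor0 the same genes spanned 0.12, at RPL13P12, to 0.83, at GID4, a subunit of a ubiquitin ligase. Distal zinc finger genes ZNF624, ZNF286A and ZNF287 changed by 0.83, 0.70 and 0.67 in erAlec0 and by 0.10, −0.23 and −0.30 in erLor0, and TRIM16 by 0.59 and 0.00. FOXO3B, a near copy of FOXO3, and ENSG00000262202 changed by 0.22 and 0.39 in erAlec0.

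The genes that did not rise form the other side of the account. In erAlec0 16 expressed genes changed by less than 0.5, and 8 of these had peaks with a median change of at least 0.5. SHMT1 (ENSG00000176974.20, chromosome 17 from 18327860 to 18363563), the cytosolic enzyme that passes carbon from serine to folate, had 8.35 in naive and 7.85 in erCriz0 cells, against 7.85 in erAlec0 and 8.70 in erLor0 cells. Its RNA was thus 0.49 below naive in erAlec0, whereas the peak over its promoter, at 18362419 to 18363584, stood at 6.11 in naive and 6.52 in erCriz0 cells, against 7.68 in erAlec0 and 7.57 in erLor0 cells and rose by 1.58 and 1.46. Its neighbour SMCR8, which overlaps it by 197 bp, rose by 1.11.

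The aldehyde dehydrogenase genes were likewise not raised in erAlec0. ALDH3A2, which oxidises fatty aldehydes, had 9.97 in naive and 9.78 in erCriz0 cells, against 9.76 in erAlec0 and 10.13 in erLor0 cells, while 8 of its 9 peaks were higher in erAlec0 than in naive cells. The peak over its promoter changed by 0.58 in erAlec0 and 0.51 in erLor0. ALDH3A1 had 5.89, 6.43, 5.28 and 5.95 in the same order, the lowest change of the stretch in erAlec0 at −0.60, and its 10 peaks had a median of −0.07. SNORD3A, a U3 small nucleolar RNA with near-identical copies, changed by −0.22, and TRIM16L by −0.00.

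**Figure D4:**
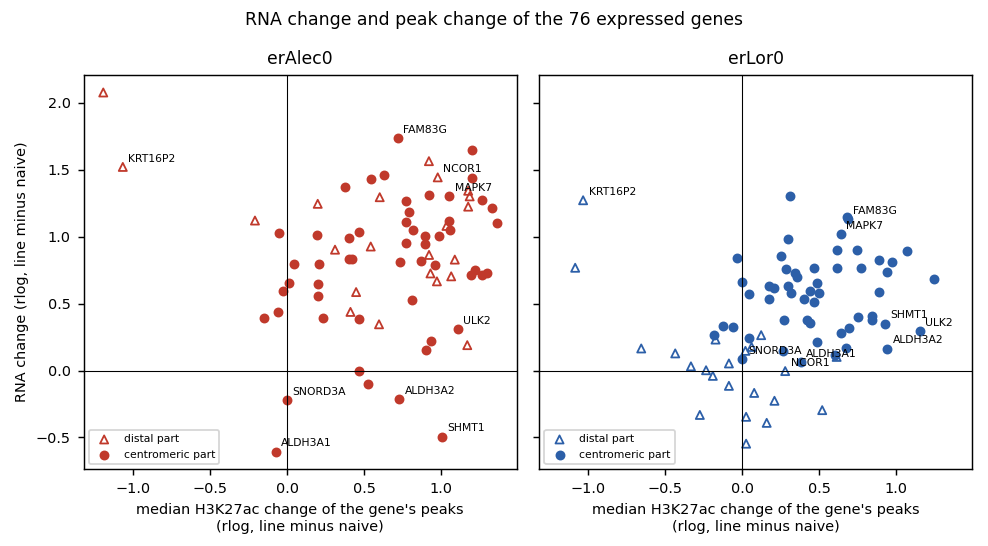
RNA change against the median H3K27ac change of the peaks paired with each of the 76 expressed genes (both rlog, line minus naive), for erAlec0 and erLor0, with distal genes as open triangles and centromeric genes as filled circles. SHMT1, ALDH3A2 and ULK2 lie to the right with low RNA changes, KRT16P2 lies to the far left with raised RNA, and the distal triangles move down to the zero line in erLor0.

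Within the stretch the size of a gene's RNA change was only weakly related to that of its peaks. Over the 76 genes, Pearson's r was 0.04 and Spearman's rho 0.18 in erAlec0, 0.24 and 0.38 in erLor0, and 0.23 and 0.20 in erCriz0. Genes share peaks and libraries, so these values are a description only. Both RNA and the peak median reached 0.5 at 41 genes in erAlec0 and at 13 in erLor0. In erAlec0 19 genes reached it in RNA alone, 8 in peaks alone and 8 in neither.

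The remaining 255 paired genes gave little RNA signal. Of these, 139 were listed at 0 in all 4 libraries and 116 had low values, with a median change of 0.02 in erAlec0. The latter ranged from −0.51 at SLC47A1, an exporter of organic cations, to 0.62, and at low reads the rlog transformation draws changes toward 0. Among the expressed genes the median change in erAlec0 was 0.73 in the low, 0.97 in the middle and 1.08 in the high tertile of level. The part of the transformation in these values was not tested.

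By position relative to genes, 216 of the 688 peaks were at promoters, within 1 kb of a transcript start, 50 in exons, 310 in introns and 112 between genes. In erAlec0 the median change of these classes was 0.77, 0.59, 0.75 and 0.47, against 0.13, −0.16, 0.00 and −0.06 over all peaks. Since the stretch was chosen for its changes in erAlec0 and erLor0, nothing is read from medians above those of all peaks. In erLor0 promoter peaks had a median of 0.42 and intron peaks of 0.18, against 0.24 and −0.10 over all peaks. The share of promoter peaks was 31.4%, against 26.7% of all peaks.

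In sequence the peaks were somewhat richer in G and C than the rest, with a median GC content of 51.9% against 47.8%. In the low, middle and high tertile of GC content within the stretch, the median change in erAlec0 was 0.86, 0.73 and 0.56, and in erLor0 0.16, 0.24 and 0.37. The order of the tertiles thus runs in opposite directions in these libraries, and its part in the result was not tested. In the 300 bases at the centre of each peak the AP-1 motif was found in 9.88% of the peaks, against 9.69% of all peaks, and the TEAD motif in 14.2% against 15.9%. The CCAAT box was found in 26% against 30.8%, the GC box in 15.3% against 13.2% and the CRE in 0.145% against 0.257%. Among the 220 peaks that rose in erAlec0 the AP-1 motif was in 10.5% and among the 468 others in 9.62%.

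Among the 546 peaks that reached 3.91, the largest rise in erAlec0 was 2.98, at 15744155 to 15744765 near TBC1D26. This peak had an rlog of 2.73 in naive and 2.90 in erCriz0 cells, against 5.72 in erAlec0 and 3.48 in erLor0 cells, so it passed 3.91 in erAlec0 alone. A second TOM1L2 intron peak, at 17928249 to 17931934, rose by 2.83 in erAlec0 and 1.62 in erLor0. A peak at 16941831 to 16944019 near TNFRSF13B, a receptor of B cells whose RNA was near 0 in all libraries, rose by 2.77 and 1.26. Near ENSG00000205325 a peak at 14778284 to 14780484 rose by 2.71 in erAlec0 and 1.46 in erLor0, although it lies in the distal part.

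Besides the keratin pseudogene peaks, the lowest changes in erAlec0 among these 546 peaks were −0.82 in an intron of SLC5A10 and FAM83G, −0.81 in an intron of KCNJ12 and −0.77 near RAI1. A peak under that level, at 17488794 to 17489055, fell by 1.08. In erCriz0 the largest rise was 2.92, at 18116900 to 18120136 in MYO15A, where the peak stood at 5.75 in naive and 8.67 in erCriz0 cells, against 6.12 in erAlec0 and 6.25 in erLor0 cells. RNA of MYO15A, an inner ear myosin, was 0.84 above naive in erAlec0, 0.58 above in erLor0 and 0.08 above in erCriz0, with an rlog from 3.87 to 4.70.

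The epithelial genes EPCAM, KRT8, KRT18, KRT19 and CDH1 had an rlog of at least 11.38 in each library, and NKX2-1, of lung epithelium, of at least 8.67. Of the genes of other cells, PTPRC was listed at 0, CD3E and PECAM1 were below 0, and COL1A1 stood at 9.49 to 10.08. COL3A1 was not analysed here. In bulk libraries fewer cells that express a gene and less RNA per cell cannot be told apart.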

How the data were processed

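The H3K27ac ChIP-seq and RNA-seq values of naive, erCriz0, erAlec0 and erLor0 cells were used, 1 library of either kind for every line. The authors deposited 1 table of peak and gene pairs with values on a log2 scale, from the rlog function of DESeq2. Their ChIP-seq reads were aligned to hg38 with BWA, stripped of duplicates and of mapping qualities under 25, and counted by featureCounts over MACS2 peaks merged from 4 samples. RNA reads were aligned to hg38 with HISAT2 and counted with HTSeq-count. Versions are not given in the sources used here. The depth is unknown, since rlog values keep no read totals, so no counting error is given. Deposited correlations of peaks and genes with their p-values were not used, and 4 of the 8 samples of the series were not analysed here.

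Changes were computed for unique peaks and genes. Peak and gene starts in the table were raised by 1 to count from 1, and gene coordinates are those of the table. Gene symbols, gene types and transcript coordinates came from GENCODE release 44, which held 330 of the 331 identifiers. With 1 library for every line no test could be run, and medians and counts are set beside those of all features. Named were expressed genes that rose in erAlec0, its 12 largest and 12 lowest changes, genes that reached 0.5 in erLor0 or 1 in size in erCriz0, lists by function, and the 5 largest and 5 lowest peak changes in erAlec0. A few more, such as the peak in MYO15A and the genes outside the stretch, were chosen after their values were seen. The members, lists and limits were chosen with earlier results of these data known. Scripts, run with Python 3.11.15, numpy 2.4.6, pandas 2.3.3 and matplotlib 3.10.9, were tested on simulated data. Alternatives were other scalings, limits, filters, gene classes, bins, ways to pair peaks with genes and an inner stretch of 15 to 21 Mb.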

Additional observations from a re-analysis of the deposited data

Results flagged for a closer look

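Expressed genes of the stretch were picked out where 2 resistant lines differed from naive cells by at least 0.5 in opposite directions. With 1 library per line these differences were not tested, and the lines share the naive library. Each value is the change in the first line minus that in the second. Against erCriz0, the RNA change in erAlec0 was higher by 1.19 at NT5M, 1.45 at PEMT, 1.36 at RAI1 and 1.29 at ATPAF2. PEMT, a methyltransferase of phosphatidylcholine synthesis, had changes of 0.84 in erAlec0 and −0.61 in erCriz0. In erLor0 the change was higher than in erCriz0 by 1.15 at PEMT, 1.10 at RAI1, 1.62 at SREBF1 and 1.17 at TRIM16L. SREBF1 changed by 0.63 in erLor0 and by −0.98 in erCriz0. ALDH3A1 went the other way, with a difference between erAlec0 and erCriz0 of −1.15, from changes of −0.60 and 0.54.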

How the results depend on the processing

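Of 111 alternative values of the summaries of the stretch, 84 stayed within 0.1 for a median or within 1.5 times for a count or share. A turn of sign was looked for only in medians of at least 0.5 in size, which were those of erAlec0, and 0 turned. At a limit of 0.5 in place of 1, 412 peaks were up in erAlec0, 233 in erLor0 and 128 in erCriz0, and 60, 35 and 5 genes. At 1.5 there were 82, 12 and 8 peaks, and 5, 0 and 1 genes. Among peaks above the median level 130 were up in erAlec0, a setting that leaves fewer peaks, and the median was 0.39 in erLor0 and 0.16 in erCriz0. Over all genes not at 0 in every library the median RNA change was 0.15 (erAlec0), 0.076 (erLor0) and −0.016 (erCriz0). The cause was not tested. With a mean rlog of at least 6 it was 1.01 in erAlec0 and 0.51 in erLor0. In erCriz0 the 2 genes that were up became 1 at this level, 1 without the listed genes with near copies, which was KRT16P6, 0 without the longer list of such genes, chosen after seeing the data, and 0 among protein-coding genes. With the gene's highest peak in place of the median, 23 genes had RNA and peaks up by 0.5 in erLor0, and with peaks within 5 kb there was 1 in erCriz0. In bins of 0.5 Mb 25% had a peak median of at least 0.5 in erLor0, against 0% in bins of 1 Mb. Centring and quantile normalization left 437 of 456 single RNA changes within 0.1 and turned the sign of 0 of those of at least 0.5. Of 41 single calls at a change of 1, centring ended 1, CENPV in erCriz0, and quantile normalization 3, that of CENPV with USP22 and CCDC144NL-AS1 in erAlec0. Calls gained were DRG2 in erAlec0 under both (1.02 and 1.01), MPRIP in erLor0 after centring (1.00) and SREBF1 in erCriz0 under quantile normalization (−1.10). No paired analysis was possible because each line has 1 library, and leaving out a replicate was not possible for the same reason. Unknown depth limits what can be said of weak genes and peaks.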

Other observations

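Beyond the stretch, on the telomeric side, 5 peaks between 11 and 12 Mb had a median change of 2.55 in erAlec0, 0.25 in erLor0 and 0.01 in erCriz0, while RNA of the nearest expressed genes, ZNF18 and MAP2K4, changed by 0.26 and −0.11 in erAlec0. On the long arm, the first expressed genes past the centromere were WSB1, which had an rlog of 10.74 in naive and 11.32 in erCriz0 cells, against 12.09 in erAlec0 and 11.52 in erLor0 cells, and KSR1, a scaffold of the RAF and MEK kinases, with 7.90, 8.59, 8.69 and 8.74. Unlike most genes of the stretch, both were also raised in erCriz0, by 0.58 and 0.69. LGALS9 next to them changed by −0.32 in erAlec0 and −0.34 in erLor0. These genes were chosen after their values had been seen.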
